A study of Mus musculus with 4 samples.

Results

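The genes described here lie around Ackr4 on mouse chromosome 9, between 102 and 108.5 Mb on the mm9 build. They are the GeneNames of all non-control array probes whose deposited position falls in that interval, without 4 left-out names (6 probes), one of which is Ackr4 itself. The rule leaves 126 genes with 174 of the array's 39429 probes, out of 29924 GeneNames in all. No probe outside the interval carried one of the 126 names. The rule uses position and no measured value, but the interval was chosen with earlier results of these data known. Its shares are therefore set beside those of the whole array as a description only.

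RNA came from mouse spleen B cells, purified by magnetic separation and held for 3 days in culture with anti-IgM and anti-CD40 antibodies (each at 10 µg/mL), which engage the B cell receptor and the receptor for T cell help. Donors were C57BL/6 males (WT) and males deficient in Ackr4 (Ackr4ko), aged 71 to 77 days, and both genotypes received both antibodies. Each of 2 independent experiments with different donors gave 1 Agilent 1-colour array per genotype, so each genotype has 2 arrays. The targeting construct, the strain of the embryonic stem cells and the number of backcrosses of the Ackr4ko line are not given in the sources used here.

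Ackr4 encodes an atypical chemokine receptor, which takes up chemokines such as CCL19 and CCL21 without G protein signalling. Genes that lie close together on a chromosome tend to be inherited together, so the neighbours of a targeted gene are read here by their distance from it. The interval is gene-dense and mixed in function: it holds ubiquitin pathway enzymes, RNA-binding proteins, the hyaluronidase genes, a group of IQ motif genes and the gene for the growth factor macrophage stimulating protein.

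The genotype labels of the arrays could not be settled. Each column of the authors' value table followed the scanner file of that experiment's other genotype, while the scanner file of its own sample lay further off. Over 16207 probes the log2 differences had an SD of 0.0203 to 0.120 in the first case and 0.450 to 0.554 in the second. All directions below follow the scanner files and are written for arrays labelled Ackr4ko and arrays labelled WT. If the value table's labels are right, every direction turns round and the counts of higher and lower genes change places. Sizes, total counts and positions from the scanner files stay. The value table's own intensities gave other sizes for some genes, described at the end. The probes of Ackr4 were well above background on 0 of 4 arrays and check neither assignment. The outlier marks set 1 array aside: 6.24% of spots carried them on the array labelled WT replicate 2, and no more than 2.12% on any other.

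All 9 B cell markers were well above background on all 4 arrays. So were 4 of 6 T cell markers on the array (Cd8a was on 0 arrays), 5 of 7 of macrophages and monocytes (Cd14 and Lyz2 on 0) and 3 of 6 of dendritic cells (Itgax on 0). Of the other lists, 1 of 4 NK, 2 of 4 neutrophil, 1 of 5 stromal and endothelial and 0 of 5 erythroid and platelet markers were above background on all arrays. The macrophage list summed to a signal of 45100 and 36000 for Ackr4ko labels and 53500 and 57400 for WT labels, and the B cell list to 440000 and 420000 against 558000 and 492000. The stromal and endothelial list, at 643 and 291 against 898 and 734, was also lower for both Ackr4ko labels, while the neutrophil list, at 1120 and 1170 against 1020 and 929, was higher. The T cell list (3160 and 4540 against 3360 and 4340), the dendritic list (62800 and 75400 against 64500 and 62900), the NK list (703 and 1280 against 727 and 842) and the erythroid and platelet list (71.6 and 123 against 97.9 and 134) overlapped. The part of these cells in the results was not tested, and in bulk RNA fewer cells of a type cannot be told apart from less RNA per cell.

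Each probe is a designed oligonucleotide of 60 bases, and 30 of these are printed, 5′ to 3′, for the probes that carry the results. Dusp7, for a phosphatase that switches off ERK-type MAP kinases, and Mst1, for macrophage stimulating protein, each had a pair of overlapping probes. They are shown because their overlaps differ in length, short in the Dusp7 pair and covering most of both probes in the Mst1 pair. Capitals in the Dusp7 pair mark the identical stretch that the probes share.
Dusp7 probe A_55_P2000628: gacacacacacacatACACATATATATCCC
Dusp7 probe A_55_P1993836: cACACATATATATCCCgagccagcaacggg
The Dusp7 probes start 42 bases apart on the plus strand (106277943 and 106277985), overlap by 16 bases and agree at 15 of them. The mismatch, at the edge of the overlap, is T45C, counted from 1 at the 5′ end of the first probe. The first probe's deposited span ends at 106278000 and is shorter than its 60 bases, so whether T45C is a substitution is not settled. The single capital in the Mst1 pair marks the base at which the overlap of 50 bases differs, T40C on the same count, so 49 bases agree.
Mst1 probe A_55_P2115392: gagatgtcaagacttTtcaaacataaagcg
Mst1 probe A_55_P1984098: gagatgtcaagacttCtcaaacataaagcg
The other genes with a concordant 2-fold difference, meaning at least 2-fold in each experiment and in the same direction, are each represented by 1 probe, of which the first 30 bases follow.
Cpne4 probe A_55_P2150697: caccgtgaactacacttttacagaattctg
Abhd14b probe A_55_P2059640: gggagtgggataaggagaggagaccgactt
Parp3 probe A_55_P2055487: ttcaaacaacgccattctttaaggctgact
Iqcf5 probe A_51_P503247: tgttcgcatcatccaggtttattggcgttg
No genome of this build was used, so the exon or untranslated region under each probe is not stated. The median GC content was 45.0% over the 114 tested probes of the interval and 43.3% over the 11 of them with a concordant 2-fold difference.

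Most genes around Ackr4 were detected. A probe counted as detected on an array where the scanner software set 50% or more of its 4 spots well above background, and it was tested where that held on at least 2 arrays. By this rule 87 of the 126 genes (69.0%), with 114 probes, were tested, against 53.4% of all GeneNames. Of the 87, the probe that represents the gene was detected on all 4 arrays for 76, on 3 arrays for 6 and on 2 arrays for 5. The 6 genes detected on 3 arrays all missed the array labelled WT replicate 2. Of the 39 genes not tested, 34 had no probe above background on any array and 5 had one on 1 array only. Among them were the collagen VI genes Col6a4, Col6a5 and Col6a6, the IQ motif genes Iqcf3, Iqcf4 and Iqcf6, and Mst1r, for the receptor of macrophage stimulating protein, which were chosen for mention after their values were seen.

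Of the 174 probes, 67.8% and 60.9% were detected on the arrays labelled Ackr4ko, replicates 1 and 2, against 64.4% and 54.6% on those labelled WT. The share was lowest on the array that stood apart, as it was over the whole array, where the shares were 54.9%, 49.5%, 52.6% and 42.2% in the same order. Probes per gene were few: 89 genes had 1 probe, 30 had 2, 3 had 3 and 4 had 4. For 53 probes detected on no array, the median value was lower on the array labelled Ackr4ko by a log2 of -0.37 in experiment 1 and -1.29 in experiment 2. These are undetected values and not measured differences.

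Each gene is represented by its brightest tested probe, on the scale of log2 processed signal shifted to a common 75th percentile, and a difference is the array labelled Ackr4ko minus the array labelled WT. Among the 87 tested genes, 6 (6.9%) had a concordant 2-fold difference (a log2 of at least 1), with 2 higher and 4 lower where the label was Ackr4ko. Over all 15982 tested genes the share was 1.79%, with 1.28% higher and 0.513% lower. No gene of the interval (0) differed 2-fold in opposite directions, against 0.225% of all genes. The 6 genes were Cpne4, Dusp7, Abhd14b, Parp3, Iqcf5 and Mst1. Cpne4, Iqcf5 and Mst1 were each undetected in 1 group and entered the test only through the group where they were high. Their differences are against undetected values, so these shares are a description only. The share with probes detected on all 4 arrays is given in the last section.

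Mst1 encodes macrophage stimulating protein, a secreted relative of hepatocyte growth factor that signals through the receptor encoded by Mst1r. Its signal was 3.56 and 3.34 (log2) on the arrays labelled Ackr4ko, replicates 1 and 2, against 7.88 and 7.53 on the arrays labelled WT. Both arrays labelled WT detected it and neither array labelled Ackr4ko did. The difference was -4.26 ± 0.33 (SE, n = 2 arrays per genotype), with an adjusted p of 0.00538 in limma with Benjamini-Hochberg adjustment. Since the low group lay below background, its arrays were set to their lowest detected signal or the probe's own, whichever was higher. Computed so, the fold was 11.3, lower on the arrays labelled Ackr4ko. It is not a strict bound, because other undetected probes of the interval read above the lowest detected signal of their array. The second Mst1 probe, overlapping the first but for T40C, read 2.41 and 3.31 against 7.47 and 7.07, a difference of -4.41 ± 0.40. Mst1 was the 1 gene of the interval called by this fit at an adjusted p under 0.05, where 0.0125% of all genes were called (2 genes), and 10 of the 87 (11.5%) had an unadjusted p under 0.05, against 4.58%. The call did not hold under quantile normalization (adjusted p = 0.430), under normexp background correction (difference -1.88, adjusted p = 0.10) or with all dim probes kept (adjusted p = 0.851). It also did not hold without the array labelled Ackr4ko replicate 1 (adjusted p = 0.119) or replicate 2 (0.314).

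Iqcf5 belongs to the IQ motif genes, whose proteins carry a calmodulin-binding motif and which are known for expression in testis. Its probe read 6.85 and 8.63 on the arrays labelled Ackr4ko against 2.85 and 4.73 on those labelled WT. It was detected on the arrays labelled Ackr4ko only. The difference was 3.94 ± 0.70 (limma adjusted p = 0.236, not called). The fold computed as for Mst1 was 6.31, higher on the arrays labelled Ackr4ko, and is not a strict bound either. The size of the difference depended on the background correction, since normexp gave 1.61. Iqcf1, the other tested gene of the family, read 6.54 and 6.76 against 6.33 and 5.98, a difference of 0.50 ± 0.33 in the same direction that was not called. The array labelled WT replicate 2 did not detect Iqcf1.

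Abhd14b encodes a small alpha/beta hydrolase. It was detected on all 4 arrays, at 7.81 and 7.15 on those labelled Ackr4ko against 10.39 and 9.90 on those labelled WT. The difference of -2.67 ± 0.37 had a limma adjusted p of 0.121. Parp3, which encodes a poly(ADP-ribose) polymerase family member that acts at DNA double-strand breaks, was also detected on all arrays. It read 7.79 and 6.93 against 9.71 and 9.16, a difference of -2.08 ± 0.40 (limma adjusted p = 0.236). For both genes the higher array labelled Ackr4ko lay more than 1 log2 unit below the lower array labelled WT.

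Dusp7 was represented by the probe A_55_P1993836, which read 7.00 and 7.09 on the arrays labelled Ackr4ko against 8.82 and 8.78 on those labelled WT. The arrays of a genotype lay close together, and the difference was -1.76 ± 0.32 (limma adjusted p = 0.236). Its second probe, A_55_P2000628, read 7.43 and 7.47 against 7.80 and 8.02, a difference of -0.46 ± 0.33. Both probes were detected on all 4 arrays and pointed the same way, but only the representing one was 2-fold, and the mean of the pair gave -1.11.

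Cpne4 encodes a copine, one of a family of calcium-dependent phospholipid-binding proteins. Of its 4 probes 1 was tested, and none of the others was detected on any array. The tested probe read 5.75 and 6.17 on the arrays labelled Ackr4ko against 2.76 and 4.62 on those labelled WT. It was detected on the arrays labelled Ackr4ko only. The difference was 2.27 ± 0.56 (limma adjusted p = 0.442). The fold computed as for Mst1 was 1.84, higher on the arrays labelled Ackr4ko, and is not a strict bound. Without the array labelled WT replicate 1 the difference was 1.34, and normexp gave 0.87. Both arrays labelled WT held undetected values, and the reading of 5.75 lay below the lowest detected signal of the array labelled WT replicate 2 (5.84), so the separation from that array was not measured.

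**Figure D1:**
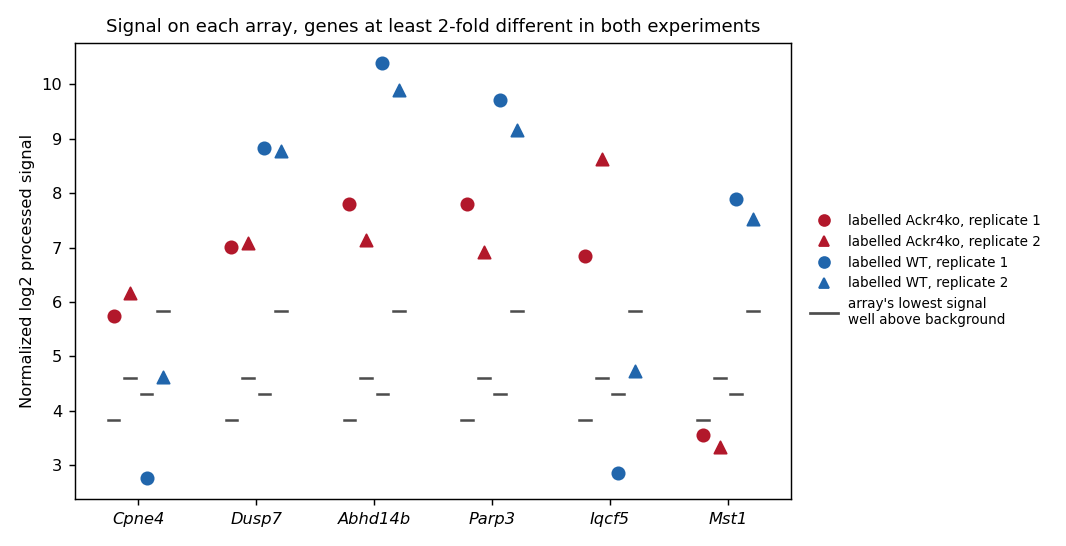
Normalized log2 processed signal (vertical axis) of the 6 genes with a concordant 2-fold difference, 1 point per array, with circles for replicate 1 and triangles for replicate 2. Short bars mark each array's lowest signal well above background, from 3.82 on the array labelled Ackr4ko replicate 1 to 5.84 on that labelled WT replicate 2. Dusp7, Abhd14b and Parp3 lie above the bars on every array, Cpne4 and Iqcf5 fall below them on the arrays labelled WT, and Mst1 falls below them on the arrays labelled Ackr4ko.

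With the experiment as a block, which compares the arrays within each pair, limma called these 6 genes and no other gene of the interval. The share was 6 of 87 (6.9%), against 3.31% of all genes (529 genes). The highest adjusted p among them was 4.58e-05, for Dusp7. In that fit each gene keeps 1 residual degree of freedom, and limma gave all genes 1 common variance, so these p-values rest on the size of the difference alone. With quantile normalization the same block called 0 genes of the interval and 0 of all 15982, with 17 and 1447 at an unadjusted p under 0.05. With 2 arrays against 2, an exact two-sided permutation test of a single gene cannot go below p = 0.333.

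The 6 genes did not sit next to Ackr4 and did not spread evenly. Their probes lay 0.934 Mb (Cpne4), 2.28 Mb (Dusp7), 2.35 Mb (Abhd14b), 2.37 Mb (Parp3), 2.42 Mb (Iqcf5) and 3.99 Mb (Mst1) beyond the Ackr4 probes, all on the side of higher coordinates, where 76 of the 87 tested genes lie, against 11 on the other side. The representing probes are at chr9:104935202-104935261 for Cpne4, chr9:106277985-106278044 for Dusp7 and chr9:106355187-106355246 for Abhd14b. Those of Parp3, Iqcf5 and Mst1 are at chr9:106372743-106372802 (minus strand, the others being on the plus strand), chr9:106418155-106418214 and chr9:107987272-107987331. By distance, 1 of 12 tested genes within 1 Mb of Ackr4 had a concordant 2-fold difference, 0 of 7 at 1 to 2 Mb, 4 of 24 at 2 to 3 Mb and 1 of 44 beyond 3 Mb. Of 13 windows of 0.5 Mb, 3 held such a gene, and the window from 106.0 to 106.5 Mb held 4 of its 17 tested genes.

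The 4 genes from Dusp7 to Iqcf5 span 140 kb, in which 10 genes were tested. The 6 others lay between them and did not share the difference. They were Gm8210, Acy1, for an enzyme that removes acetyl groups from amino acids, Abhd14a, Pcbp4, for a KH-domain RNA-binding protein, Rrp9, for a ribosomal RNA processing factor, and Iqcf1. Their differences ran from -0.09 to 0.75. Abhd14a, a paralogue of Abhd14b, read 10.57 and 10.89 on the arrays labelled Ackr4ko against 10.81 and 10.82 on those labelled WT. Its groups overlapped, with a difference of -0.09 ± 0.33. Pcbp4 had the largest difference of these 6, reading 10.34 and 10.88 against 9.73 and 10.00 (0.75 ± 0.35, not called). Large and small differences thus alternated along the same stretch, and both directions occurred in it.

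**Figure D2:**
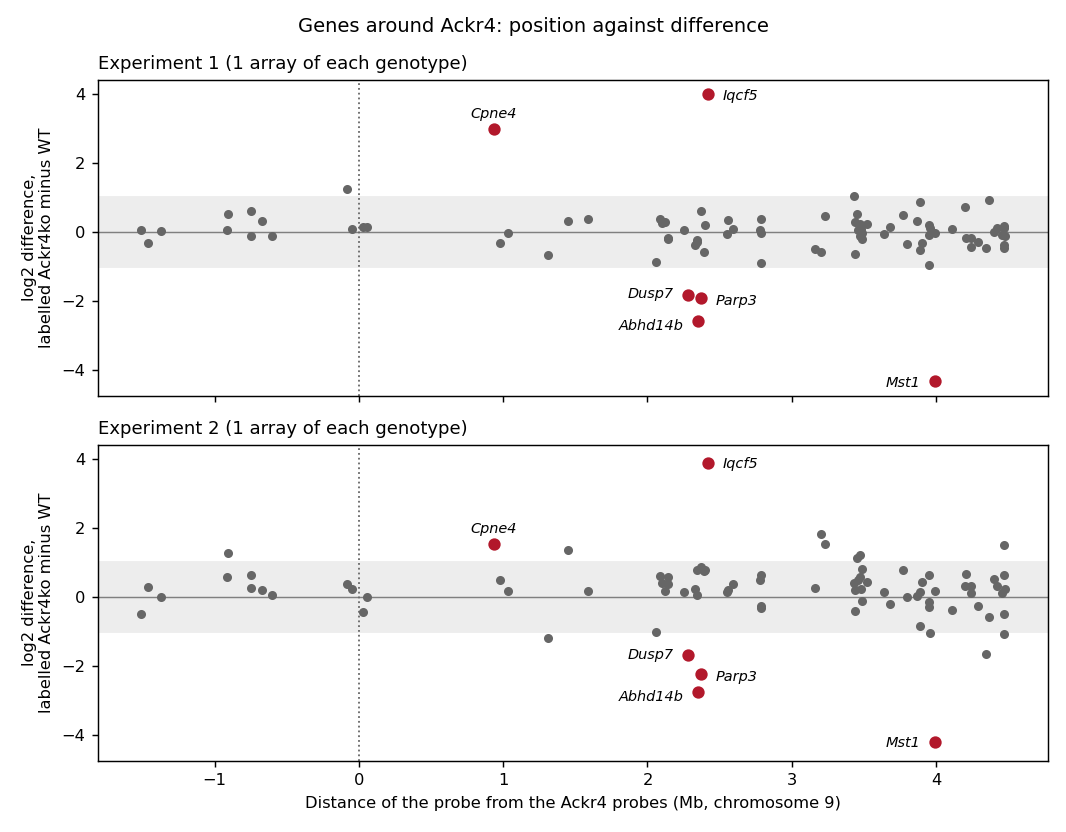
Log2 difference (array labelled Ackr4ko minus array labelled WT, vertical axis) of the 87 tested genes against the distance of the representing probe from the Ackr4 probes in Mb (horizontal axis), with experiment 1 above and experiment 2 below. Red points are the 6 genes with a concordant 2-fold difference, the grey band spans differences under 2-fold, and 4 of the red points stand between 2.28 and 2.42 Mb.

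Near Ackr4, 5 genes besides Cpne4 are described, and none of these passed the test. On the side of lower coordinates, Tmem108 differed by -0.02 ± 0.32 with its representing probe. Its other tested probe, described below, differed by -2.33 ± 0.47 and had a concordant 2-fold difference. Bfsp2 encodes a lens intermediate filament protein. Bfsp2 differed by 0.26 ± 0.40, with overlapping groups. On the other side, Acad11, an acyl-CoA dehydrogenase, lay 0.029 Mb away and differed by -0.15 ± 0.34. Dnajc13, an endosomal J-domain protein, differed by 0.06 ± 0.36 and Mrpl3, a mitochondrial ribosomal protein, by 0.08 ± 0.35, and between them came Cpne4.

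The ends of the interval fell between genes with small differences. At the lower end the last tested gene inside was Cep63, a centrosome protein (-0.23 ± 0.38), and the first outside was an unnamed transcript of probe A_55_P2060863 (0.32 ± 0.33). At the upper end they were P4htm, a transmembrane prolyl hydroxylase (0.05 ± 0.33), and Arih2, a ubiquitin ligase (0.24 ± 0.32). On the rest of chromosome 9, 18 of 589 tested genes below the interval (3.06%) and 3 of 135 above it (2.22%) had a concordant 2-fold difference. Those shares and the 6.9% of the interval were not tested against each other.

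Most of the remaining 81 tested genes lay under 2-fold in both experiments. Over all 87 genes the median difference was 0.10, against 0.08 over all tested genes. The median was 0.03 in experiment 1 and 0.22 in experiment 2, where the medians over all tested genes were -0.04 and 0.23. In both experiments 36 genes were higher on the array labelled Ackr4ko (41.4%) and 17 lower (19.5%), and 34 had opposite signs (39.1%). Over all tested genes these shares were 33.0%, 20.9% and 46.1%. Of the 81, 67 did so, 2 were 2-fold in experiment 1 only and 12 in experiment 2 only, the pair with the array that stood apart. In all, 8 of 87 genes (9.2%) were 2-fold in experiment 1, against 4.66% of all genes, and 18 (20.7%) in experiment 2, against 10.1%. Not all of the 12 and the 18 were measured differences. Klhdc8b read 3.91 and 5.55 in experiment 2, below the lowest detected signals of those arrays (4.60 and 5.84).

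**Figure D3:**
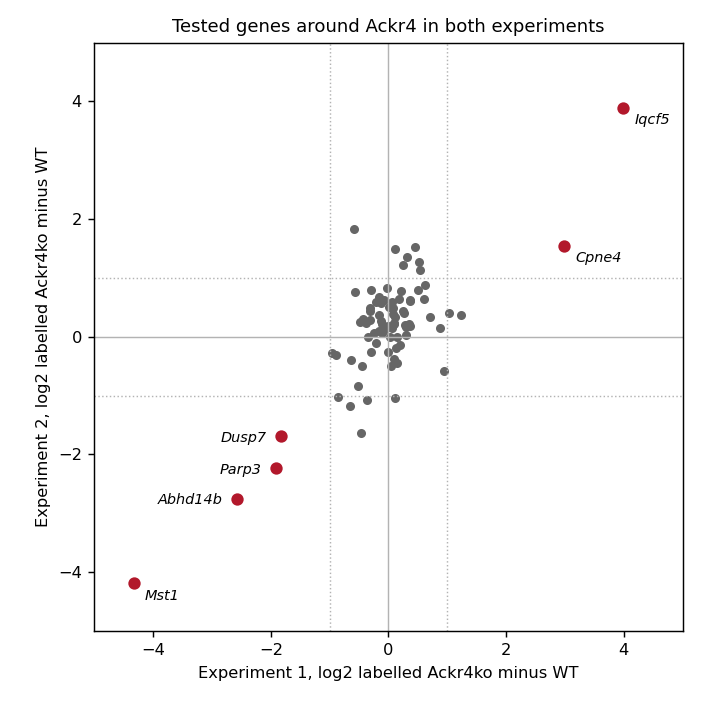
Log2 difference (array labelled Ackr4ko minus array labelled WT) in experiment 1 (horizontal axis) against experiment 2 (vertical axis) for the 87 tested genes, with dotted lines at 2-fold. The Pearson correlation was 0.79 over the 87 genes and 0.34 over all 15982 tested genes. Without the genes of concordant 2-fold difference, which selects on the agreement itself, it was 0.34 over the 81 grey points and 0.18 over 15696 genes of the whole array; genes are not independent replicates, so no p is given.

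The genes were sorted by role, and in each role the tested genes with the smallest p are named. Of 15 genes for mitochondrial and metabolic enzymes 14 were tested, 0 were called and 1, Abhd14b, was 2-fold in both experiments. The median difference was 0.07. Glyctk, which encodes glycerate kinase, read 7.33 and 6.65 on the arrays labelled Ackr4ko against 8.19 and 7.67 on those labelled WT. Its groups did not overlap, with a difference of -0.94 ± 0.38 and an adjusted p above 0.9 (limma). The second Glyctk probe, detected on 2 of 4 arrays, read 4.75 and 3.70 against 5.95 and 5.14. Its difference was -1.32 ± 0.45 (limma over probes, adjusted p = 0.851). It counted as a concordant 2-fold one, but neither array of experiment 2 detected this probe. The readings of 3.70 and 5.14 lay below the lowest detected signals of those arrays (4.60 and 5.84), so the difference in experiment 2 was not measured. All 11 genes of ubiquitin and autophagy were tested and 0 were called, with a median of 0.17. Nprl2, a subunit of the GATOR1 complex that restrains mTORC1, differed by 0.83 ± 0.38, and Rnf123, a ubiquitin ligase, by -0.62 ± 0.46. In both experiments 7 of the 11 were higher and 4 lower, where the shares over all tested genes were 33.0% and 20.9%. Some of these differences were as small as 0.006 in size, so their sign carries little.

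All 12 genes of RNA and translation were tested and 0 were called, with a median of 0.16. Wdr6, which takes part in tRNA modification, read 9.95 and 9.07 on the arrays labelled Ackr4ko against 10.32 and 10.14, a difference of -0.72 ± 0.38. Of 16 signalling genes 13 were tested, 1 was called (Mst1) and 2 were 2-fold in both experiments (Mst1 and Dusp7), while the median was 0.03. Of 10 genes for DNA repair, the cell cycle and centrosomes 8 were tested, and 1, Parp3, was 2-fold. Topbp1, which activates the checkpoint kinase ATR, read 12.23 and 12.36 against 11.62 and 11.72, a difference of 0.62 ± 0.32 that was not called.

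Of 10 genes of the secretory pathway and transport 7 were tested and 0 were called, with a median of 0.32. Srprb, the beta subunit of the signal recognition particle receptor, read 8.98 and 9.42 on the arrays labelled Ackr4ko against 8.47 and 8.14. Its difference of 0.90 ± 0.34 had an unadjusted p of 0.030, and both its tested probes gave nearly the same value (0.80 and 0.90). Atp2c1, the calcium and manganese pump of the Golgi, read 10.32 and 9.40 against 10.98 and 10.58, a difference of -0.92 ± 0.40. Of 11 genes for matrix and hyaluronan 5 were tested and 0 were called. Hyal2, a cell-surface hyaluronidase, differed by 0.22 ± 0.34, and Amigo3, an adhesion molecule, by -0.47 ± 0.55. Amigo3 was detected on 2 of 4 arrays, 1 of each label, and differed by 0.11 in experiment 1 and -1.05 in experiment 2. Outside the 6 genes, 4 had an unadjusted p under 0.05, namely Srprb, Glyctk, Atp2c1 and Hemk1, and the lowest adjusted p of the 81 was 0.956 (limma).

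Probes of the same gene did not always give the same difference. Of the 87 genes, 22 had at least 2 tested probes, and in 4 of these (18.2%) the differences of the probes lay more than 1 log2 unit apart, against 3.98% of the 3917 such genes on the array. The median span was 0.26 in the interval and 0.22 over the array. The 4 genes were Tmem108, Mapkapk3, Dusp7 and Hemk1, of which Mapkapk3 and Hemk1 were chosen for description after their values were seen. When only probes detected on all 4 arrays were compared, 2 remained, Dusp7 and Hemk1. No share over the array is given for that filter, so these 2 cannot be set against the 3.98%.

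Tmem108, a transmembrane protein of neurons, had the widest span, 2.30. Its representing probe read 7.84 and 7.95 on the arrays labelled Ackr4ko against 7.95 and 7.88 on those labelled WT, a difference of -0.02. The other probe lies 14865 bases away on the same strand and its first 30 bases are printed for comparison.
Tmem108 probe A_55_P2022519: atattataaatataacctttgtgtaaccct
This probe read 5.17 and 4.63 on the arrays labelled Ackr4ko against 6.55 and 7.90 on those labelled WT, a difference of -2.33 ± 0.47 (limma over probes, adjusted p = 0.249). It was detected on 3 arrays, not on that labelled Ackr4ko replicate 2, and the groups did not overlap. Its concordant 2-fold difference lies on the side of lower coordinates from Ackr4.

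Hemk1, a methyltransferase of translation release factors, was high on the arrays labelled Ackr4ko by both probes. One read 9.42 and 10.46 against 8.96 and 8.93, a difference of 0.99 ± 0.41. The other, 2656 bases away, read 9.42 and 10.90 against 7.68 and 8.48, a difference of 2.08 ± 0.51 (limma over probes, adjusted p = 0.430). Mapkapk3, a kinase activated by p38, read 11.53 and 12.13 against 12.02 and 11.88 with its representing probe, so the groups overlapped. Its dim probe read 4.01 and 5.49 against 5.72 and 6.62, a difference of -1.42 ± 0.52, and was detected on 2 of 4 arrays. The first 30 bases of the Hemk1 and Mapkapk3 probes with the larger difference follow.
Hemk1 probe A_55_P1993984: gagttgttgctgtggataaggaggaagctg
Mapkapk3 probe A_55_P2009767: cacttctctgggtctatagatatataaaat
Counted by probe, 11 of 114 (9.65%) had a concordant 2-fold difference, against 1.71% of all tested probes. Of these, 3 were higher (1.22% of all probes) and 8 lower (0.489%) where the label was Ackr4ko. Of the 11, the probes of Cpne4, Iqcf5, Mst1, Tmem108 and Mapkapk3 and the second of Glyctk were not detected on all 4 arrays. The limma fit over probes called 2 of the 114, both of Mst1, against 0.024% of all tested probes.

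**Figure D4:**
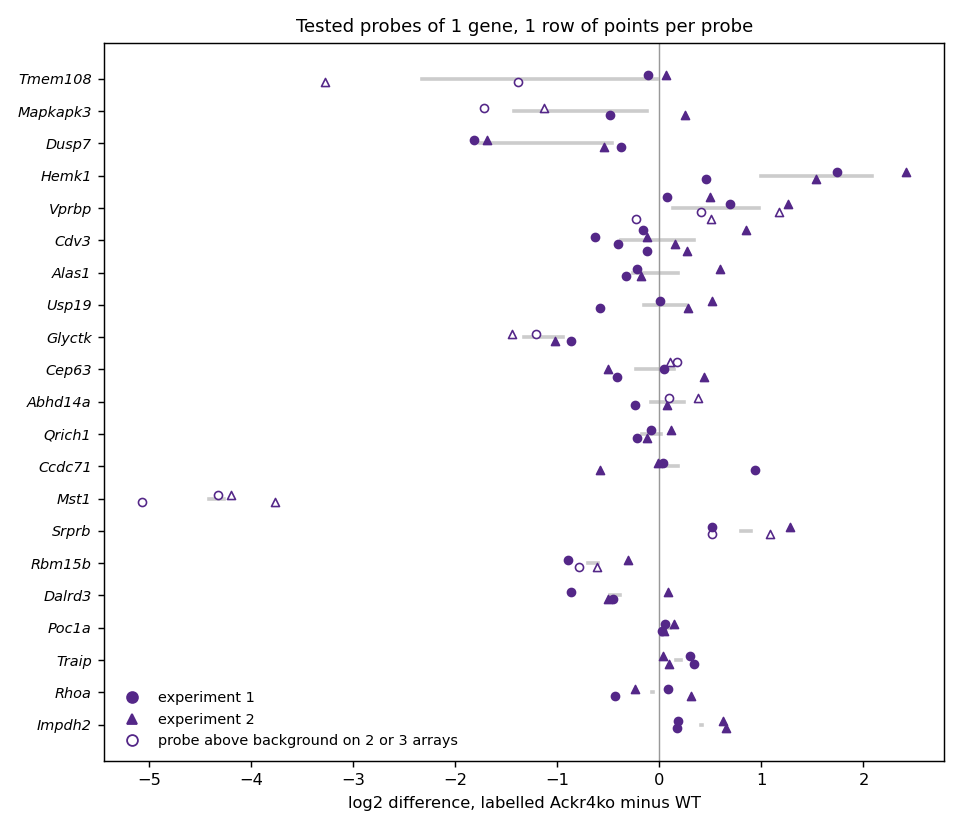
Log2 difference (array labelled Ackr4ko minus array labelled WT, horizontal axis) of each tested probe of 21 of the 22 genes with at least 2 tested probes, 1 row of points per probe, with circles for experiment 1 and triangles for experiment 2. Open symbols are probes detected on 2 or 3 arrays and grey lines join the probes' mean differences, which lie 2.30 apart for Tmem108, 1.30 for Mapkapk3 and Dusp7 and 0.15 for Mst1.

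The authors' deposited value table held the same 6 genes with a concordant 2-fold difference, with the directions turned. In it Mst1 had an intensity of 370 and 342 in the columns labelled Ackr4ko and 23 and 16 in those labelled WT. Abhd14b had 2121 and 1671 against 356 and 223, and Iqcf5 had 17 and 36 against 183 and 616. Its columns follow the arrays of the other genotype, so these are the same measurements and not a second set.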

How the data were processed

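Total RNA (50 ng, Cy3) of 4 samples was hybridised to Agilent 1-colour arrays, per the labels' protocols. The submitters' processing notes name Agilent Feature Extraction 10.7.3.1, and the deposited scanner files it made hold intensity and flags per spot, with probe positions on mm9. In the authors' value table each probe has 1 intensity, already normalized, and how it was normalized is not given in the sources used here.

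The deposited processed signal was taken to log2, and each array was shifted so that its 75th percentile equalled the mean of the 4. Control and outlier spots were left out and the 4 spots of a probe averaged. Before the shift that percentile was 740 to 1277 in signal, and 0 spots were saturated. The number of arrays limits the precision. Floors were each array's lowest signal among detected probes. Genotypes were compared over all tested genes by moderated linear models (limma 3.58.1, R 4.3.3), two-sided and with Benjamini-Hochberg adjustment. Replicate numbers mark the 2 experiments the series describes, which makes pairs of arrays. Within a pair, deviations from the genotype means had a correlation of 0.42.

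The interval, the 8 role lists and the rules were chosen with earlier results of these data known. Named genes are called genes; genes 2-fold the same or opposite ways in both experiments; the 4 tested genes nearest Ackr4 on each side; the genes at the interval's ends; the 2 with the smallest p per role list; and genes whose probes span over 2 (log2). Some genes that this rule names are not reported here. Symbols were matched to a RefSeq table (GRCm38.p6), 116 by accession and 4 by symbol, with 6 kept as on the array. Vprbp, Nat6, Fam212a, Ccdc36 and 1700080E11Rik are there Dcaf1, Naa80, Inka1, Iho1 and Nudt16l2. Alternatives changed the normalization, background correction, filter, probe summary, outlier rule, block, fold threshold and arrays used.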

Additional observations from a re-analysis of the deposited data

How the results depend on the processing

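The 6 genes with a concordant 2-fold difference were the same 6 under quantile normalization, median centring, no filter, outlier spots kept and the authors' value table. They were 5 at 3-fold, under normexp and with undetected arrays set at their floor (Cpne4 left out each time), 8 with the mean of a gene's probes (9.2%, against 1.81% of all genes), 10 at 1.5-fold (11.5% against 6.0%) and 3 with probes detected on all 4 arrays (Abhd14b, Dusp7 and Parp3, 3.95% against 1.08%), a filter that removes genes undetected in 1 group. In alternatives chosen after seeing the data, experiment 1 alone gave 8 genes and experiment 2 alone 18. Where no share over all genes stands beside a count, the count shows only which genes stayed and not an excess over the array. With no filter the count is out of all 126 genes of the interval and not out of 87. Of the 87 genes, 1 was called by limma without a block. The count was 0 under quantile normalization, the filter on all 4 arrays, no filter and the authors' value table. It was 6 with the replicate block (529 over all genes), and the fit over probes called 2 probes, both of Mst1 (5 over all probes). The block with quantile normalization, added after seeing the data, called 0. Leaving out 1 array at a time gave 0 to 5 calls, 0 without either array labelled Ackr4ko, 2 without that labelled WT replicate 1 (24 over all genes) and 5 without WT replicate 2 (122 over all genes, against 2 with every array), where the lone array is assumed to vary like the others. Under normexp the 1 call was Abhd14b, not Mst1. The median difference of the 87 genes ran from 0.05 to 0.22 over the leave-one-out fits and was -0.02 under the value table's own labels, which run opposite to the scanner files'. Windows holding a 2-fold gene went from 3 to 5 over probes and 1 with the filter on all 4 arrays. Genes whose probes span over 1 log2 unit went from 4 to 2 with that filter, also added after seeing the data. In the value table's own labels the differences were 2.74 for Abhd14b, -2.62 for Cpne4, 1.82 for Dusp7, -3.76 for Iqcf5, 4.21 for Mst1 and 2.02 for Parp3. The cause was not tested where none is given. Signal over background limits Cpne4, Iqcf5 and Mst1, each undetected in 1 group.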
